A study of Nematostella vectensis with 33 samples.

Results

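This comparison used 7 of the study's 33 libraries: 4 from embryos of the sea anemone Nematostella vectensis injected with a short hairpin RNA (shRNA) against NF-kB, and 3 from embryos injected with an shRNA against GFP, the study's control. The NF-kB libraries came from 2 hairpins, NFkB shRNA 1 and NFkB shRNA 2, with 2 libraries each. They were taken by their labels from an experiment of 11 libraries in 5 shRNA groups, in which the other 4 libraries carried 1 of 2 hairpins against STAT. All 11 were whole embryos given 2'3'-cGAMP at 100 µM for 4 h, so the injection and the agonist were shared by control and knockdown, and 0 of the 11 were untreated. The labels give neither the strain nor the age of the embryos, nor whether libraries came from separate injections or cultures, so a p-value here reflects the spread between libraries alone, which may be technical. An untreated state was available only from other libraries of the study: GFP shRNA embryos of a separate experiment on STING, and polyps given 2'3'-cGAMP at 500 µM for 24 h.

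NF-kB is a transcription factor of the Rel family that is held inactive by inhibitor proteins of the IkB family and enters the nucleus when immune receptors are engaged. 2'3'-cGAMP is a cyclic dinucleotide that the enzyme cGAS makes in cells that sense DNA, and it binds the receptor STING. In vertebrates STING signals to interferon regulatory factors and to NF-kB. The study design states that the knockdowns were made to find the factors that the response to 2'3'-cGAMP requires. Genes are named by the identifiers in the deposited tables, which carry no product names. The functions of the named genes are therefore not given, and the NF-kB transcript itself was not analysed here, so its depletion by the hairpins could not be checked.

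The values are normalized counts deposited by the authors for 22111 genes, of which 20058 reached 10 in at least 2 libraries and were tested. The deposited totals of the 7 libraries ranged from 18.1 to 20.5 M (M, mega), and the depth, estimated from the value of 1 read, was approximately 14.5 to 25.6 M reads. One library stood apart. NFkB shRNA 2 library 1 lay at 150 on the first principal component of the 11 libraries, which carried 20.8% of the variance, while the others lay between -31.9 and 8.82. It also had the lowest estimated depth of the 7 and listed 14.0% of genes at 0, against 4.49 to 10.6% in the other 6. Counts without it are given beside the main ones below.

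Among embryos given 2'3'-cGAMP, 314 genes were lower and 241 were higher with NF-kB shRNA than with GFP shRNA, at an adjusted p below 0.05 (limma, Benjamini-Hochberg over 20058 genes, mean of both hairpins against control). These were 1.57% and 1.20% of the tested genes, or 2.77% together. Decreases were the larger: 211 of the lower genes fell by at least 1 on the log2 scale and 59 by at least 2, while 91 of the higher genes rose by at least 1 and 5 by at least 2. The median log2 change was -1.24 among the lower genes, with a range of -4.52 to -0.54, and 0.87 among the higher genes, with a range of 0.51 to 2.75. Over all tested genes the median was -0.036. The libraries are bulk embryo RNA, in which fewer cells of a type and less RNA per cell cannot be told apart.

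All 4 NF-kB libraries lay below all 3 controls in 288 of the 314 lower genes, and above them in 223 of the 241 higher genes. Over all tested genes, 6.53% lay wholly below and 6.27% wholly above. The called genes were chosen from these same libraries, so their separation largely follows from the choice. Without NFkB shRNA 2 library 1, 148 genes were lower and 74 higher. When the same 20058 genes were kept and that library was left out, 140 of the 314 lower genes and 73 of the 241 higher genes passed the test, with median log2 changes of -1.15 and 0.82. These genes were chosen by the same contrast with the library included, so their medians say little about stability. Of the 29 genes named by rule below, LOC5507694, LOC116603002, LOC5507424, LOC116616329 and LOC5520526 lost the call without it. The log2 changes of the named lower genes then ranged from -3.02 to -2.02 and those of the named higher genes from 1.39 to 2.46. When GFP library 2 was left out instead, 8 of the 29 lost the call. The lower genes together made up 6.19, 7.58 and 7.45% of the deposited total in the 3 GFP libraries, 3.19 and 2.76% with NFkB shRNA 1, and 3.07 and 3.98% with NFkB shRNA 2. The higher genes together made up 2.72, 2.40 and 2.17% of the total in the controls, 4.83 and 4.22% with NFkB shRNA 1, and 5.09 and 4.41% with NFkB shRNA 2. These sums describe genes chosen by the same contrast.

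**Figure D1:**
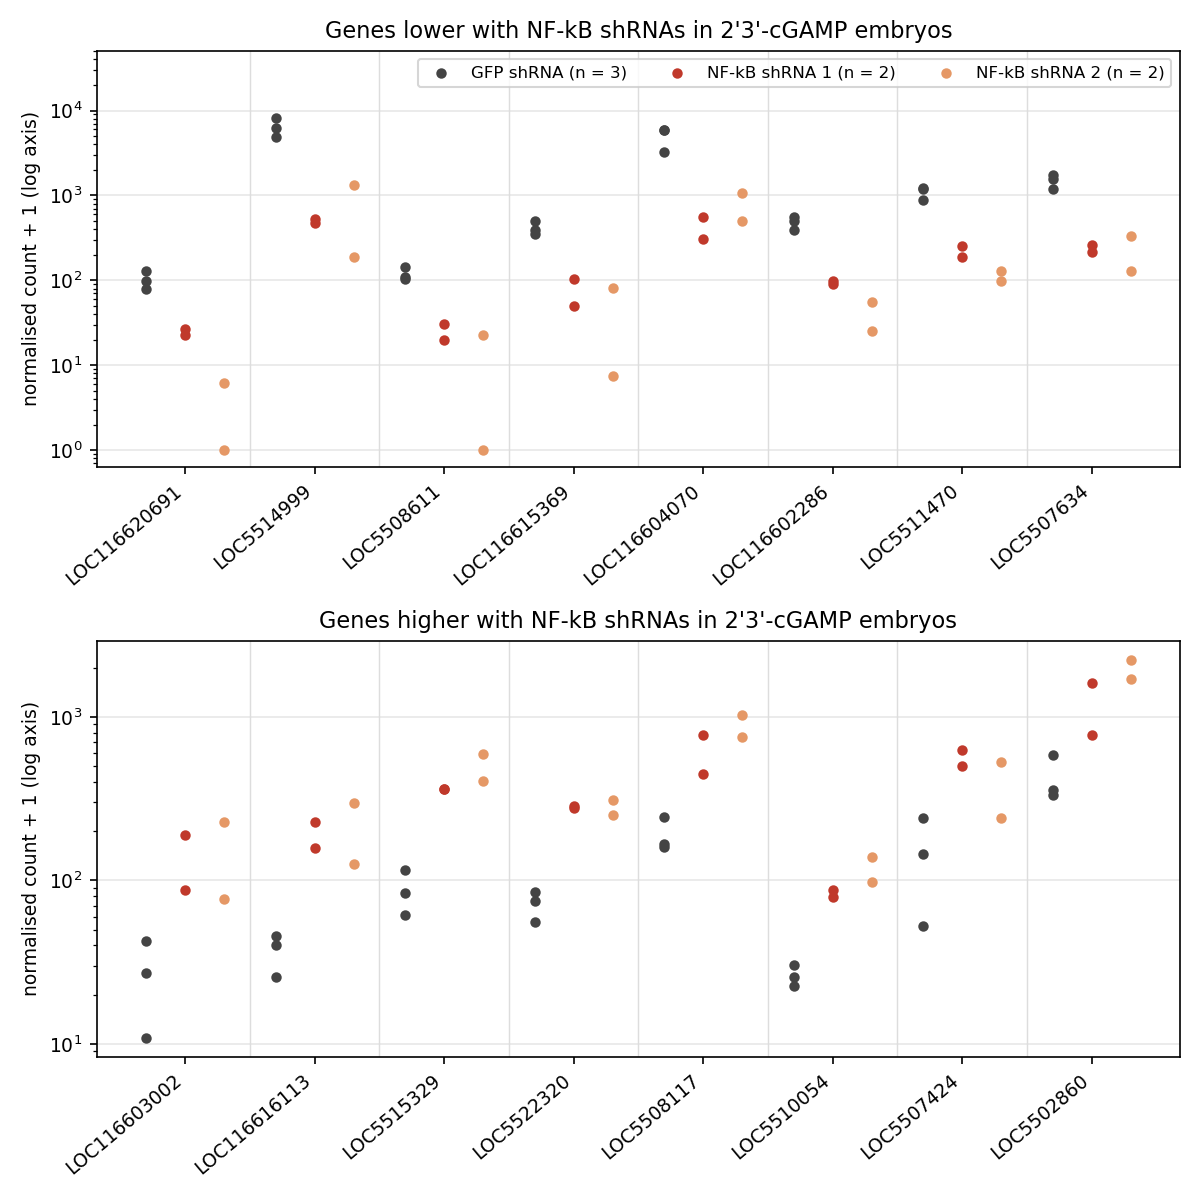
Normalized counts (log10 axis of value + 1) of the genes with the largest decreases and increases in NF-kB against GFP shRNA embryos. Each point is 1 library, coloured by shRNA, with the hairpins apart. The 8 lower genes and the 8 higher genes were chosen so that the 4 NF-kB libraries do not overlap the 3 GFP libraries.

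The 8 genes with the largest decreases, among called genes with a mean of at least 50 and no overlap between the groups, changed by -3.68 to -2.72 on the log2 scale. LOC5514999 measured 4874, 8073 and 6304 in the GFP libraries, 475 and 524 with NFkB shRNA 1, and 187 and 1325 with NFkB shRNA 2. Its mean went from 6417 ± 1603 (SD, n = 3) to 627 ± 488 (SD, n = 4), which is 9.78% of control, and every NF-kB library lay below every control. The log2 change was -3.65 (95% interval -4.63 to -2.68, adjusted p = 0.000651 by limma), the same under each hairpin, and -2.95 without NFkB shRNA 2 library 1.

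LOC116604070 measured 3251, 5881 and 5870.1 in the controls, 555 and 305 with NFkB shRNA 1, and 499 and 1064 with NFkB shRNA 2. Its log2 change was -3.14 (95% interval -3.76 to -2.51, adjusted p = 0.000127 by limma), and the groups were far apart relative to the spread within each. LOC5507634 measured 1176, 1563 and 1740.0 in the controls and 261, 217, 129 and 334 in the NF-kB libraries, a log2 change of -2.72. These 3 of the 8 genes were also among those that 2'3'-cGAMP raised in the embryos of the STING experiment, described below.

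The other 5 of these genes were not called as raised by 2'3'-cGAMP in embryos. LOC5511470 measured 873, 1208 and 1199 in the controls, 186 and 250.4 with NFkB shRNA 1, and 96.3 and 129.6 with NFkB shRNA 2, with no overlap and a log2 change of -2.79 (adjusted p = 4.08e-05, limma). LOC116602286 measured 388, 493 and 559.5 in the controls against 97.9, 90.1, 24.4 and 54.4, a log2 change of -2.99 (adjusted p = 0.000127, limma). In both, NFkB shRNA 2 library 1 was the lowest of the 7 libraries.

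The remaining genes were of lower level, and the same library was again the lowest of the 7 in each. LOC116615369 measured 396, 497 and 351 in the controls and 49.2, 103, 6.54 and 79.7 in the NF-kB libraries, a log2 change of -3.28. LOC116620691, the gene with the largest decrease of the 8, measured 77.9, 96.5 and 129 in the controls, 25.7 and 21.8 with NFkB shRNA 1, and 0 and 5.18 with NFkB shRNA 2. Its log2 change was -2.02 under NFkB shRNA 1, which did not pass the test (adjusted p = 0.159, limma), and -5.33 under NFkB shRNA 2. LOC5508611 measured 109, 142 and 103 in the controls and 18.8, 29.7, 0 and 22.0 in the NF-kB libraries, and its call was lost in 5 of the 7 fits that each left out 1 library. Of the 314 lower genes, 13 were at 0 in at least 1 NF-kB library, 9 of them in NFkB shRNA 2 library 1. The log2 changes of such genes depend on the pseudocount of 1. With a pseudocount of 5, LOC116620691 changed by -2.86 and LOC5514999 by -3.64, so the order of these genes depends on it too.

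The 8 genes with the largest increases, by the same rule, rose by 1.84 to 2.49 on the log2 scale. LOC5515329 measured 82.7, 115 and 60.2 in the GFP libraries, 359 and 363 with NFkB shRNA 1, and 406 and 589 with NFkB shRNA 2. The groups did not overlap, and the log2 change was 2.32 (adjusted p = 0.00496, limma). LOC5502860 measured 583, 355 and 333 in the controls and 1604, 769.5, 2239 and 1696 in the NF-kB libraries, a log2 change of 1.84. LOC5522320 had the narrowest spread among the NF-kB libraries of the 8, at 283, 277, 308 and 251, against 73.4, 83.4 and 54.5 in the controls. It rose by 1.99 on the log2 scale (adjusted p = 0.00316, limma).

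LOC5508117 measured 245, 159 and 166 in the controls and 773, 447, 1019.8 and 756 in the NF-kB libraries, a log2 change of 1.94. LOC5510054 was of low level in the controls, at 24.5, 21.6 and 29.2, and measured 86.2, 77.8, 96.3 and 138 with NF-kB shRNA. Its call was lost without GFP library 2 (adjusted p = 0.0812, limma). LOC116616113 measured 39.4, 44.9 and 24.6 in the controls against 157, 227, 296 and 126, a log2 change of 2.40 (95% interval 1.47 to 3.33). In each of these genes both hairpins lay above control in both of their libraries, as the rule requires.

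For 2 of the 8 the controls themselves were spread widely. LOC116603002 measured 41.6, 26.2 and 9.92 in the controls and 187, 86.8, 226 and 76.3 in the NF-kB libraries, and its call was lost in 4 of 7 fits without 1 library. LOC5507424 measured 239, 144 and 51.6 in the controls and 499, 623, 525 and 241 in the NF-kB libraries, so that the lowest NF-kB library lay just above the highest control. Its call was lost in 5 of 7 such fits.

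The 2'3'-cGAMP response was taken from libraries outside this comparison. In GFP shRNA embryos of the STING experiment, 943 genes that were also tested here were higher with 2'3'-cGAMP than without (4.52% of the genes tested there were called higher). Of these 943 genes, 111 fell with NF-kB shRNA (11.8%, against 1.57% of all tested genes) and 52 rose (5.51%, against 1.20%). The other 780 (82.7% of the list) did not pass the test in either direction. The median log2 change of the list was -0.091, beside -0.036 over all tested genes. Read the other way, the raised genes were 35.4% of the 314 lower genes and 21.6% of the 241 higher genes, while they were 4.70% of the tested genes.

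The raised genes were more highly expressed than most, with a median control level of 1945 against 163 over all tested genes, and the part of that level in the share called was not tested. Counts differed with the size of the response. Among 325 raised genes with a 2'3'-cGAMP log2 response under 2, 18 fell (5.54%) and 20 rose (6.15%) with NF-kB shRNA. Among 378 genes with a response of 2 to 4, 48 fell (12.7%) and 24 rose (6.35%). Among 240 genes with a response of at least 4, 45 fell (18.8%) and 8 rose (3.33%). The share that fell was thus highest in the class with the strongest response, and the median control levels of the 3 classes, 1663, 2069 and 2299, followed the same order. Among the 18846 tested genes that were not raised, with a median level of 151, 202 fell (1.07%) and 189 rose (1.00%). Without NFkB shRNA 2 library 1, the counts that fell and rose were 8 and 4 under 2 (2.46 and 1.23%), 26 and 8 from 2 to 4 (6.88 and 2.12%), and 24 and 4 at 4 or more (10 and 1.67%). Among genes not raised they were then 90 and 58 (0.480 and 0.310%).

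**Figure D2:**
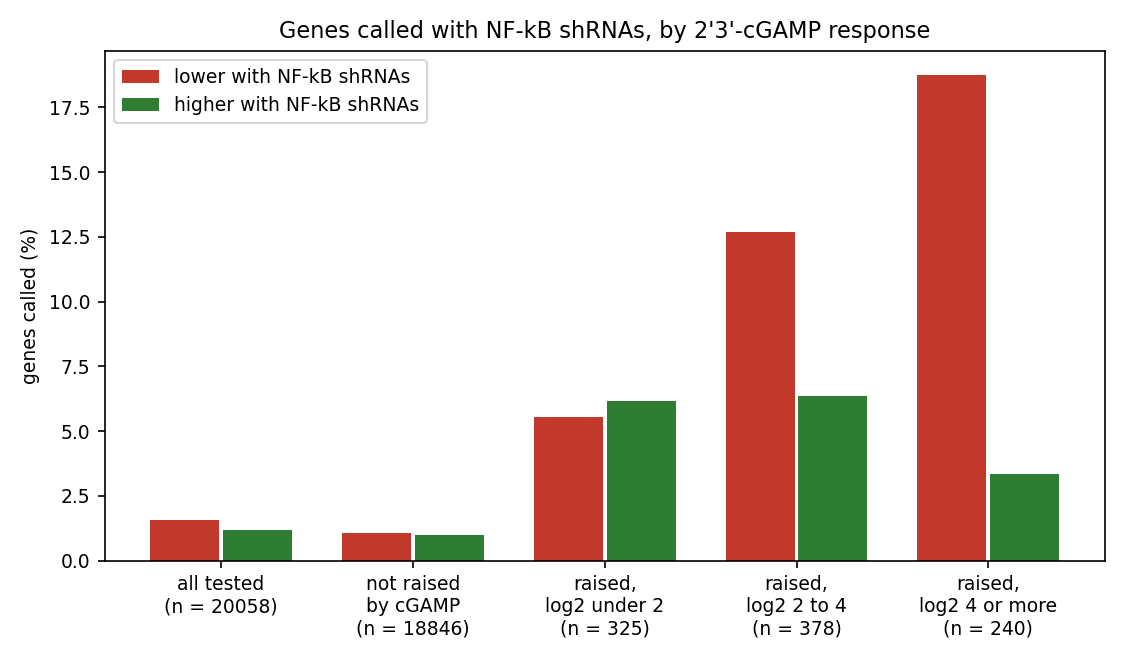
Share of genes (percent) that were lower or higher in NF-kB than in GFP shRNA embryos, by the size of the 2'3'-cGAMP response (log2) in embryos of the STING experiment. Of 240 genes with a response of at least 4, 45 fell and 8 rose, while 202 and 189 of 18846 genes not raised did.

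In the same embryos 1.28% of genes were lower with 2'3'-cGAMP. Of 263 such genes tested here, 4 fell (1.52%, against 1.57% of all tested genes) and 2 rose (0.760%, against 1.20%) with NF-kB shRNA, which is at or near the background; 1 fell and 0 rose without NFkB shRNA 2 library 1, when limma called 222 genes in all. The median 2'3'-cGAMP log2 response was 3.30 for the raised genes that fell with NF-kB shRNA, 2.18 for those that rose, and 2.41 for those not called. Without that library, 58 raised genes fell (6.15%, against 0.743% of all tested genes) and 16 rose (1.70%, against 0.372%), with a median log2 change of -0.083. Both counts were smaller than with all libraries, and more raised genes still fell than rose.

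**Figure D3:**
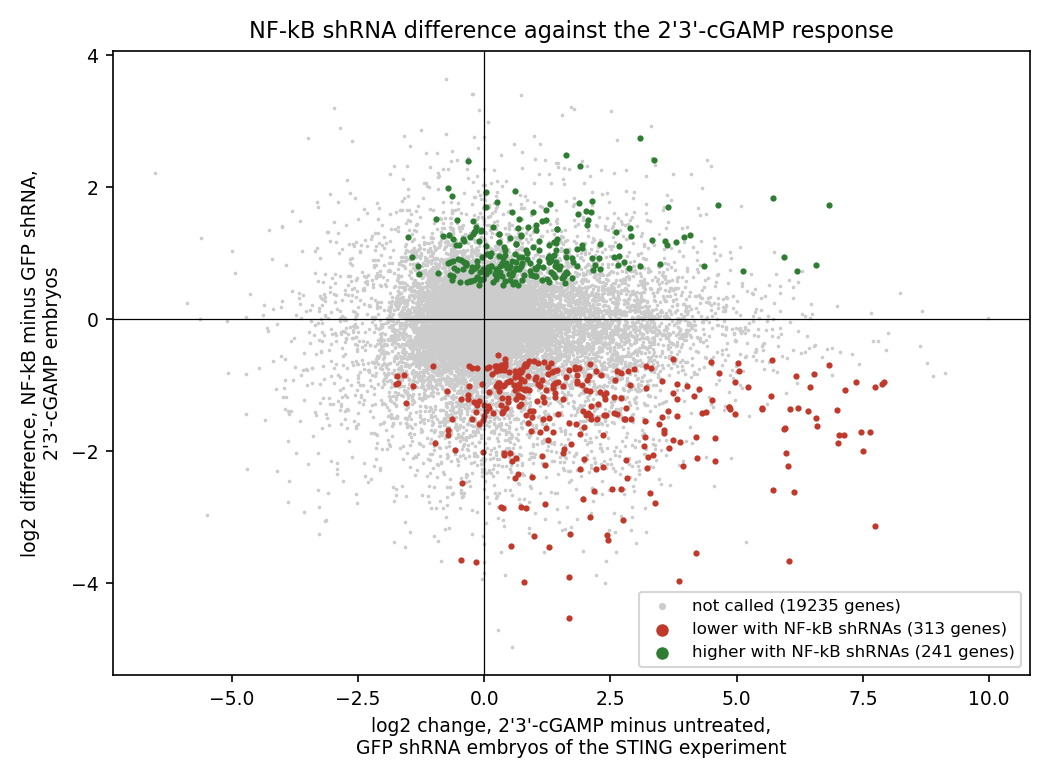
Log2 change with NF-kB shRNA against GFP shRNA (vertical) by log2 response to 2'3'-cGAMP in GFP shRNA embryos of the STING experiment (horizontal), 1 point per gene tested in both. Genes that fell (313 with a value on both axes) or rose with NF-kB shRNA are coloured; 111 of the 943 raised genes fell, 52 rose and 780 were not called.

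The raised gene of highest level among the named ones was LOC5515806. It measured 102087, 140225 and 119612 in the GFP libraries, 21989.5 and 20247 with NFkB shRNA 1, and 12326 and 26698 with NFkB shRNA 2. This gene alone took 0.514, 0.684 and 0.644% of the deposited total in the controls, and 0.109, 0.112, 0.0642 and 0.132% in the NF-kB libraries. The NF-kB mean was 16.8% of control, with a log2 change of -2.61 (95% interval -3.21 to -2.02, adjusted p = 0.00026, limma). The groups did not overlap, which was a condition for naming the gene. In the STING experiment the same gene measured 731 and 907 in untreated embryos and 61673 and 53703 with 2'3'-cGAMP. The 2 experiments have separate tables, normalized separately, so levels are not compared between them.

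The 8 raised genes with the largest decreases, by the same rule as above, changed by -3.65 to -2.24 on the log2 scale. The rule requires no overlap between the NF-kB and GFP libraries, so their separation was fixed by the choice. Besides LOC5514999, LOC116604070, LOC5507634 and LOC5515806, they included LOC5503306, which measured 472, 649 and 622 in the controls and 102, 75.2, 81.4 and 132 in the NF-kB libraries. It rose with 2'3'-cGAMP by 5.72 on the log2 scale in the STING experiment. LOC116619636 measured 824, 1724 and 1114 in the controls and 144, 213, 296 and 379 in the NF-kB libraries, a log2 change of -2.26. LOC5505764 had the tightest NF-kB values of the 8, at 131, 149.7, 152 and 165, against 588, 745 and 804 in the controls. Its mean went from 712 ± 112 (SD, n = 3) to 149 ± 14.0 (SD, n = 4), a log2 change of -2.24 (95% interval -2.62 to -1.86, adjusted p = 4.08e-05, limma).

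LOC5507694 measured 1867, 3113 and 3985 in the controls and 482, 501, 533 and 996 in the NF-kB libraries. The groups did not overlap, as the rule requires, and its log2 change was -2.25 (adjusted p = 0.00927, limma). The call was narrowly lost without NFkB shRNA 2 library 1, at a log2 change of -2.02 (adjusted p = 0.0581, limma), and without GFP library 2 (adjusted p = 0.058, limma).

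**Figure D4:**
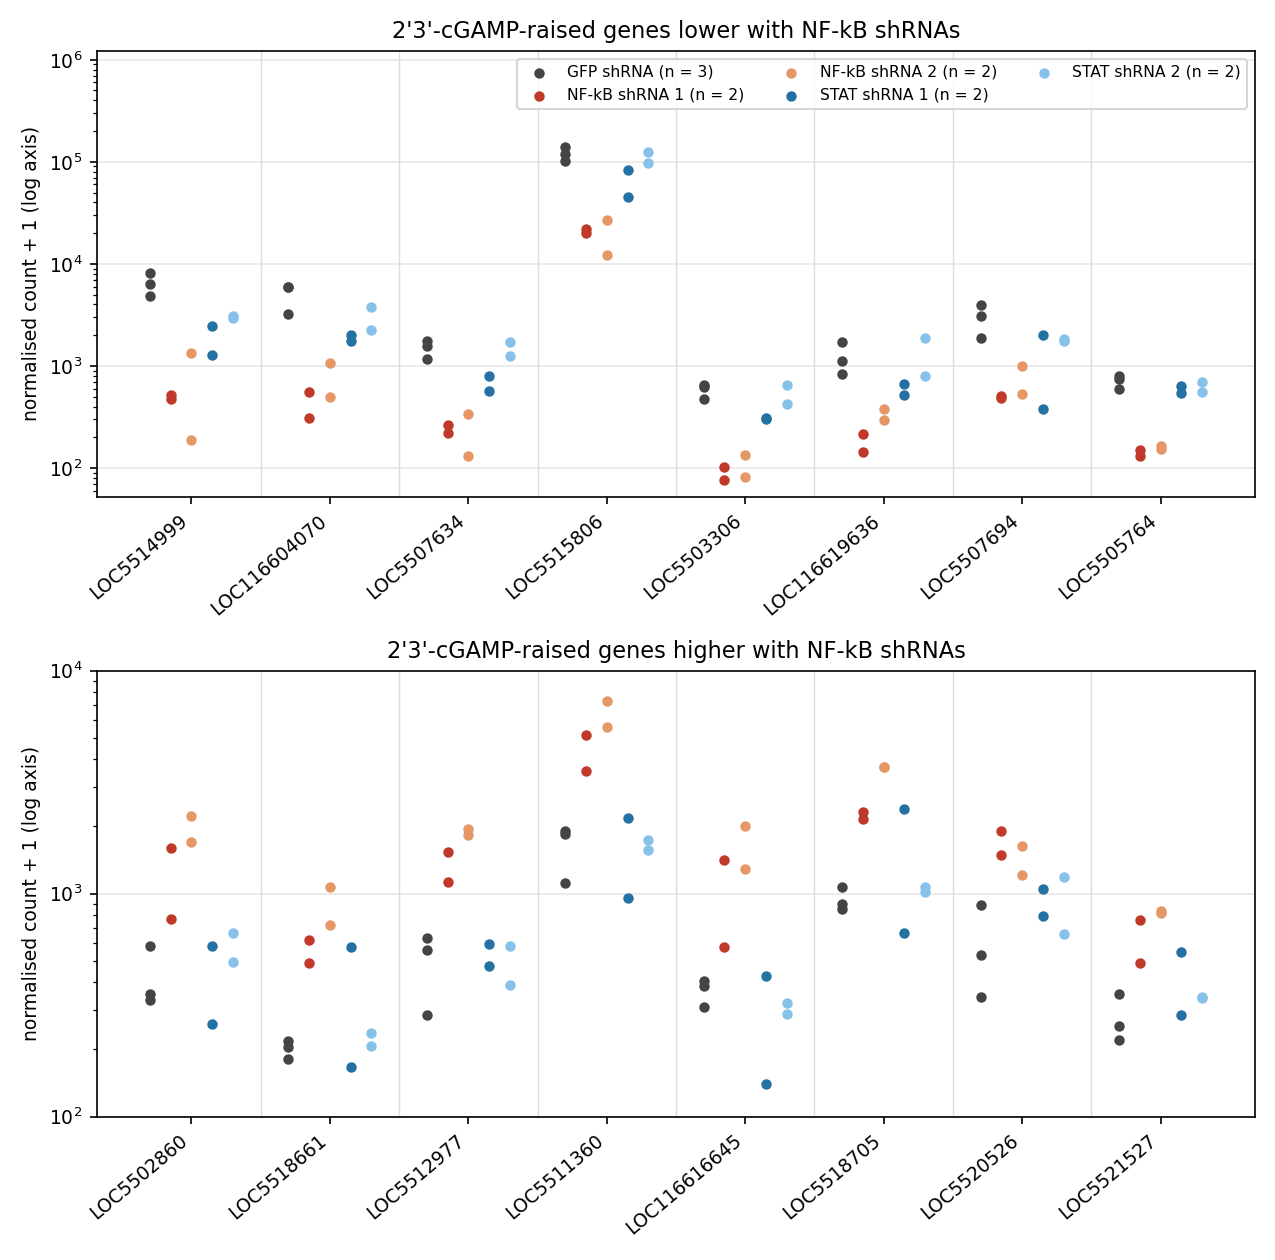
Normalized counts (log10 axis) of value + 1 per library of genes that 2'3'-cGAMP raised in embryos of the STING experiment: the 8 that fell most with NF-kB shRNA (upper panel) and the 8 that rose most (lower panel). Points are libraries of the GFP, NF-kB and STAT shRNA groups. The genes were chosen so that the 4 NF-kB libraries lie on 1 side of the 3 GFP libraries.

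A smaller group of raised genes moved the other way, above the level that 2'3'-cGAMP gave in control embryos. The 8 with the largest increases, by the same rule, rose by 1.38 to 1.84 on the log2 scale. LOC5511360 measured 1907, 1856 and 1113 in the GFP libraries, 5163 and 3558 with NFkB shRNA 1, and 5567 and 7323 with NFkB shRNA 2. Every NF-kB library lay above every control, as the rule requires, with a log2 change of 1.73 (adjusted p = 0.00241, limma). In the STING experiment it measured 0 and 63.5 in untreated embryos and 907 and 926 with 2'3'-cGAMP.

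LOC5512977 measured 632, 555 and 285 in the controls and 1536, 1132, 1834 and 1946 in the NF-kB libraries, a log2 change of 1.76. LOC5518661 measured 180.2, 203 and 217 against 488, 616, 1069.6 and 723, and LOC5518705 measured 899, 1068 and 854 against 2161, 2326, 3692 and 3707. In both, the 2 libraries of NFkB shRNA 2 were higher than the 2 of NFkB shRNA 1. LOC5521527 measured 353, 253 and 220.4 in the controls and 757, 485, 814 and 835 in the NF-kB libraries, a log2 change of 1.38.

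For 2 others the call was narrowly lost when 1 library was left out, while the change stayed of similar size. LOC116616645 measured 308, 406 and 384 in the controls and 1418, 574, 1285 and 2001 in the NF-kB libraries, a log2 change of 1.72. It was 1.40 without NFkB shRNA 1 library 1 (adjusted p = 0.0599, limma) and 1.80 without GFP library 2 (adjusted p = 0.0587, limma). LOC5520526 measured 891, 527 and 342 in the controls and 1904, 1491, 1641 and 1213 in the NF-kB libraries. Its log2 change was 1.39 without NFkB shRNA 2 library 1 (adjusted p = 0.0581, limma) and 1.48 without GFP library 2 (adjusted p = 0.0575, limma).

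The 3 genes with the largest 2'3'-cGAMP response in embryos, chosen after their values were seen, did not pass the test with NF-kB shRNA, although 2 of them passed under some alternatives. Their responses were 9.98, 8.89 and 8.63 on the log2 scale, and each was at 0 in 1 untreated library, so these sizes depend on the pseudocount. LOC116612243, the first of them, measured 2351, 2678 and 2202 in the GFP libraries and 2770.0, 1181, 3022 and 3574 in the NF-kB libraries. Its NF-kB values lay on both sides of the controls, with a log2 change of 0.02 (95% interval -0.45 to 0.49) that ranged from -0.29 to 0.33 over the alternatives. LOC116618411 measured 1572, 1913 and 1232 in the controls and 1452, 847, 1003 and 1539.8 in the NF-kB libraries, with overlap and a log2 change of -0.40 (95% interval -0.85 to 0.05). It passed with library weights estimated from the data, at -0.62 (adjusted p = 0.0363, limma). LOC116608134 measured 1165, 1037 and 509 in the controls and 447, 394, 723 and 379 in the NF-kB libraries, a log2 change of -0.86 (95% interval -1.46 to -0.25) with overlap and an adjusted p = 0.133 (limma). It passed with the replicate number as a block (-1.23, adjusted p = 0.00244, limma) and with library weights (-1.11, adjusted p = 0.00468, limma). It also passed without GFP library 3 (-1.23, adjusted p = 0.0197, limma). GFP library 3, the lowest control, carries no weight in the block fit, so the block and this omission are not separate checks.

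A test that missed the threshold does not show that a gene was unaffected. Of the 780 raised genes not called, 614 (78.7%) had a 95% interval within 1 log2 unit of no change on either side. The corresponding share over all genes not called was 52.0%, or 10148 of 19503. The raised genes together took 26.9, 28.1 and 26.0% of the deposited total in the controls, and 25.6, 19.8, 26.1 and 26.9% in the NF-kB libraries. These summed shares overlapped between the groups, and NFkB shRNA 1 library 2 was the lowest of the 7.

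Against GFP, NFkB shRNA 1 alone gave 427 called genes (2.13% of those tested), with 283 lower (1.41%) and 144 higher (0.718%), and NFkB shRNA 2 alone gave 320 (1.60%), with 193 lower (0.962%) and 127 higher (0.633%). The hairpins share their 3 control libraries, so their separate lists are not independent. Among the 314 lower genes the median log2 change was -1.28 under NFkB shRNA 1 and -1.18 under NFkB shRNA 2, and 102 were called under both, 218 under the first and 159 under the second. Among the 241 higher genes the medians were 0.88 and 0.93, and 52 were called under both. In 45 of the lower genes and 0 of the higher genes the changes under the hairpins differed by more than 1 on the log2 scale.

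Set directly against each other, the hairpins differed at 0 of 20058 genes (0.00%) at an adjusted p below 0.05 in limma, where the lowest adjusted p was 0.162 and 2329 genes had an unadjusted p below 0.05. With 2 libraries each, the median 95% interval of a gene reached 0.806 log2 units to either side. Leaving out NFkB shRNA 2 library 2 gave 195 such genes, with the remaining library of that hairpin being the one that stood apart. Among the 943 genes raised by 2'3'-cGAMP in embryos, 113 were lower under NFkB shRNA 1 (11.98%, against 1.41% of all tested genes). Under that hairpin 11 were higher (1.17%, against 0.718%), and the median log2 change was -0.24. Under NFkB shRNA 2, 61 were lower (6.47%, against 0.962%) and 40 higher (4.24%, against 0.633%), with a median of 0.07. On this list the share of higher genes lay nearer to that of all tested genes under NFkB shRNA 1 than under NFkB shRNA 2. The difference between the hairpins on that list was not tested. Without NFkB shRNA 2 library 1, NFkB shRNA 1 had 396 called genes and NFkB shRNA 2, left with 1 library, had 22, of which 6 of the raised genes were lower and 1 was higher.

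The STAT shRNA embryos received the same injection procedure and 2'3'-cGAMP and serve as a second reference. Against their 4 libraries the NF-kB libraries had 436 called genes (2.17% of those tested), of which 251 were lower (1.25%) and 185 higher (0.922%). Both comparisons use the same 4 NF-kB libraries, so they are not independent. Of the 314 genes that were lower against GFP, 200 (63.7%) were also lower against STAT, with a median log2 change of -0.97 there, and these were 200 of the 251. Of the 241 that were higher against GFP, 106 (44.0%) were also higher against STAT, with a median of 0.64, and these were 106 of the 185. Without NFkB shRNA 2 library 1, 126 genes were lower and 65 higher against STAT, of which 96 and 26 were also called in the same direction against GFP.

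The STAT shRNA libraries differed from GFP at 1 gene (0.00499%), which was lower, and 1080 genes had an unadjusted p below 0.05 (limma). Across the 314 lower genes the median log2 change of STAT against GFP was -0.24, and across the 241 higher genes it was 0.26. These genes were chosen against the same GFP libraries, so some shift of STAT in the same direction follows from the choice. The STAT values of the most affected genes, chosen in the same way, often lay between the other groups. LOC5514999 measured 1269 and 2481 with STAT shRNA 1 and 3102 and 2976 with STAT shRNA 2, all below every control, and 1 NF-kB library, at 1325, lay above the lowest of them. LOC5515806 measured 45014, 83033, 98086 and 124964 with STAT shRNA, all above the highest NF-kB library, and the highest overlapped the controls.

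Other genes were at control level with STAT shRNA. LOC5505764 measured 629, 548, 560.1 and 698 there, which overlapped the controls and was far above the NF-kB values, with a log2 change of -2.02 for NF-kB against STAT. LOC116615369 measured 289.9, 379, 427 and 525 with STAT shRNA and changed by -3.23 (adjusted p = 0.00381, limma). LOC5511360 measured 950.4, 2171, 1571 and 1743 with STAT shRNA, below every NF-kB library, and differed by 1.76. LOC5507694, in contrast, did not pass against STAT, with a log2 change of -1.07 (adjusted p = 0.219, limma), and there STAT shRNA 1 library 1 at 380.3 lay below every NF-kB library. LOC116616329, low in both reference groups, measured 59.4, 44.3 and 63.4 with GFP shRNA, 22.7, 82.4, 87.2 and 35.6 with STAT shRNA, and 204, 158, 189.8 and 204 with NF-kB shRNA. It was called against both, but its call against GFP (adjusted p = 0.0449, limma) was lost in all 7 fits that left out 1 library.

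Of the 943 genes raised by 2'3'-cGAMP in embryos, 84 were lower with NF-kB than with STAT shRNA (8.91%, against 1.25% of all tested genes). A further 69 were higher (7.32%, against 0.922%), and the median log2 change of the list was 0.03. The excess of lower over higher genes was therefore smaller against STAT than against GFP in these counts, and the difference between the references was not tested. Without the NF-kB library that stood apart on the first principal component, 53 of these genes were lower against STAT (5.62%, against 0.633% of all tested genes). In that fit 26 were higher (2.76%, against 0.326%). Of the genes named above as the largest changes, 8 of the 8 lower and 4 of the 8 higher were also called against STAT.

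Polyps gave a second list of responding genes, from another life stage, dose and time, in which 28.5% of the genes tested were higher with 2'3'-cGAMP and 30.0% lower. Of 5185 raised polyp genes tested here, 252 fell (4.86%) and 145 rose (2.80%) with NF-kB shRNA. Of 5338 lowered polyp genes, 15 fell (0.281%) and 27 rose (0.506%), below the 1.57% and 1.20% of all tested genes. Without NFkB shRNA 2 library 1, 122 raised polyp genes fell (2.36%) and 54 rose (1.04%). Of the lowered polyp genes, 6 then fell (0.113%) and 5 rose (0.0938%). In that fit 0.743% of all tested genes were lower and 0.372% higher. Where a polyp value was available, 252 of 308 lower genes (81.8%) and 145 of 239 higher genes (60.7%) were raised in polyps, beside 29.5% of all tested genes. The median polyp log2 response was 2.48 for the lower and 1.21 for the higher genes.

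Of 882 genes raised in both embryos and polyps, 108 fell (12.2%, against 1.57% of all tested genes) and 46 rose (5.22%, against 1.20%). Among 4303 genes raised in polyps and not called as raised in embryos, 144 fell (3.35%) and 99 rose (2.30%). Among the 12288 genes raised in neither, 55 fell (0.448%) and 89 rose (0.724%). Without NFkB shRNA 2 library 1, the genes raised in both gave 56 and 13 (6.35 and 1.47%). Those raised in polyps only gave 66 and 41 (1.54 and 0.954%), and those in neither 24 and 17 (0.196 and 0.139%). The shares of all tested genes were then 0.743 and 0.372%. Some of the genes of largest decrease were in the polyp list alone. LOC116602286 measured 17.0 and 14.2 in untreated polyps and 4437 and 4776 with 2'3'-cGAMP, and in embryos its response of 2.08 on the log2 scale missed the threshold (adjusted p = 0.0582, limma). LOC5511470 rose from 95.9 and 119 to 1439.5 and 1397 in polyps, and LOC5515329, which rose with NF-kB shRNA, went from 382 and 287 to 7615 and 10464. LOC116620691, which fell with NF-kB shRNA, was at 4.25 and 4.43 in untreated polyps and at 0 in both treated libraries, and LOC5522320, which rose with NF-kB shRNA, measured 179 and 198 untreated and 28.6 and 32.2 treated.

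The affected genes were next described by type and position in the RefSeq annotation (assembly jaNemVect1.1), to which 16547 of the 22111 identifiers (74.8%) matched. Of the 314 lower genes, 270 were protein-coding, 1 was a long non-coding RNA and 43 were not matched. Of the 241 higher genes, 218 were protein-coding and 23 were not matched. Median control levels were 849 and 937.

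Some of the affected genes lay next to each other. Among the 264 lower genes with a tested protein-coding neighbour, 39 (14.8%) had an adjacent gene that also fell, and 40 of the 463 neighbours fell (8.64%, against 1.57% of all tested genes). For the higher genes, 19 of 217 (8.76%) had an adjacent gene that also rose, and 20 of 383 neighbours rose (5.22%, against 1.20%). Neighbours are protein-coding genes of the annotation, while the share beside them is over all tested genes, unmatched ones included. Each adjacent pair of the same direction was counted from both sides. Of the 463 neighbours of lower genes, 1 rose (0.216%, against 1.20% of all tested genes). Of the 20 adjacent lower pairs, 6 had overlapping annotations, where reads of the 2 genes may not be told apart, and of the 10 adjacent higher pairs 0 had. When NFkB shRNA 2 library 1 was left out, 12 of 209 neighbours of lower genes fell (5.74%, against 0.743%) and 4 of 120 neighbours of higher genes rose (3.33%, against 0.372%). Whether neighbours are related copies was not tested.

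A row of 3 adjacent genes rose: LOC5518661 by 1.79, LOC5518705 by 1.62 and LOC5518663 by 0.71 on the log2 scale. LOC5518661 and LOC5518705 are among the raised genes described above. LOC116616113 lay beside LOC5509137, which rose by 0.85. Among the lower genes, 3 in a row, LOC5509431, LOC5509442 and LOC5509430, changed by -0.77, -1.47 and -1.35. LOC116619128 and LOC5513962 changed by -1.55 and -2.05, and LOC5511857 and LOC5511856 by -1.28 and -1.15. The neighbours beyond the named rule were chosen after their values were seen.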

How the data were processed

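The deposited values are normalized counts (a signal per gene that is not whole), made by the authors with tools that the submitters' processing notes list as FastQC 0.11.9, kallisto 0.46.1 and DESeq2, without a role. The transcriptome build is not given in the sources used here. Whole reads are not given, and no count test was run.

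Genes with at least 10 in at least 2 of the 11 libraries were kept. A pseudocount of 1 was added before log2, and limma 3.58.1 (R 4.3.3) was used to fit 1 mean per shRNA, with a variance trend, over all 11 libraries. Tests were two-sided, adjusted by Benjamini-Hochberg over 20058 genes, and called at 0.05. A fold on this scale understates changes of low genes. The model was tested on simulated data.

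Lists of 2'3'-cGAMP-responsive genes came from the same model in the STING experiment's GFP shRNA embryos and in polyps. The named genes are the 8 largest called changes per direction with a mean of at least 50, no overlap between groups and a match in the reference, the same among genes raised in embryos, and 4 per direction also called against STAT. A further 21 lists by gene name, pathways and cell-type markers among them, matched 0 genes, so the embryo label was not checked against markers. The comparison and lists were chosen with earlier results of these data known. Alternatives covered the pseudocount, the filter, scaling, library weights, thresholds, a replicate block and single libraries left out.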

Additional observations from a re-analysis of the deposited data

Results flagged for a closer look

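A pair of values of 1 gene, LOC5507694, lay far from the rest of their group. In the NF-kB group, NFkB shRNA 2 library 2 measured 996, while the other 3 libraries measured 482 to 533. In the STAT group, STAT shRNA 1 library 1 measured 380.3, while the other 3 measured 1768 to 2028. Each gap exceeded Dixon's critical value at 95% for 4 samples. The named genes gave 66 groups of 4 libraries, of which chance flags about 1 in 20, or 3.3.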

How the results depend on the processing

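Counts of called genes depended on single libraries and on how libraries were weighted. Leaving out each library in turn gave 188 to 761 genes for NF-kB against GFP (555 with all), with 114 to 529 lower and 74 to 289 higher. The lowest total was without GFP library 2 (188), followed by NFkB shRNA 2 library 1 (222), and the highest was without NFkB shRNA 2 library 2 (761); without NFkB shRNA 1 library 1, 116 were higher. The ranges were 14 to 683 for NFkB shRNA 1, 22 to 670 for NFkB shRNA 2, 0 to 195 for the difference of the hairpins and 184 to 572 for NF-kB against STAT. For genes raised in embryos they were 57 to 123 lower and 16 to 60 higher, and for those raised in polyps 98 to 299 and 54 to 146. The 14 and the 22 were each without 1 of the hairpin's own 2 libraries, which leaves a lone library assumed to vary like the others. Library weights estimated from the data gave 1927 genes (1061 lower, 866 higher), 1351 and 675 for the hairpins, and 677 lower and 335 higher in the polyp list. An adjusted p below 0.01 gave 212 genes (136 lower, 76 higher), 96 and 111 for the hairpins, 167 against STAT, 66 and 21 in the embryo list and 118 and 57 in the polyp list. A log2 change of at least 1 gave 302 genes, 91 higher, 218 against STAT, 71 and 21 in the embryo list and 167 and 50 in the polyp list. The last 2 settings are stricter by construction; the cause of the other differences was not tested. Equal totals gave 327 lower and 303 higher genes, and moved the share of lower calls from 56.6 to 51.9%.

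The deviations of same-numbered libraries correlated between -0.012 and 0.13 over 10 pairs of groups, of which 1 was over 0.1. This correlation takes all tested genes together, and a pairing by replicate number that affects only some genes was not tested. With the replicate number as a block, limma called 569 genes for NF-kB against GFP (555 without the block). It called 515 and 429 for the hairpins (427 and 320 without) and 736 for NF-kB against STAT (436 without). GFP library 3, alone in its number, carries no weight in the block fit. Of 627 values of 33 named genes under 19 settings, 581 kept their side of the threshold, 42 lost the call, 4 gained it (LOC116608134 in 3 and LOC116618411 in 1) and 0 of the called values changed sign; LOC116612243, not called, lay near 0 and changed sign. Among the 29 genes named by the rule, 21 stayed called without each of the 7 libraries in turn. The alternatives on the polyp list, on a fixed set of tested genes and on lists and neighbours without NFkB shRNA 2 library 1 were chosen after seeing the data. With 2 libraries per hairpin, the intervals are too wide for small differences between hairpins.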

Other observations

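LOC5514869 was the gene called between STAT and GFP shRNA, and was chosen after its values were seen. It measured 20350.3, 24382 and 27499 with GFP shRNA, 8294 and 7349.6 with STAT shRNA 1, and 5839 and 4839 with STAT shRNA 2, a log2 change of -1.89 (adjusted p = 0.000774, limma). With NF-kB shRNA it measured 19629.9, 12476, 23213 and 25342, a log2 change of -0.29 against GFP (95% interval -0.68 to 0.088, adjusted p = 0.454, limma). Its NF-kB values overlapped the controls and lay above all 4 STAT libraries, with a log2 difference of 1.60 between NF-kB and STAT.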
